A study of Mus musculus with 2 samples.

Results

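The insulin-like growth factor system was described here by 10 genes: the ligands Igf1 and Igf2, the receptors Igf1r, Igf2r and Insr, and the binding proteins Igfbp2, Igfbp3, Igfbp4, Igfbp5 and Igfbp6. The genes were chosen by name, and all 10 matched 1 gene each among the 55536 annotated genes of the tables. Total RNA was sequenced from 2 male mice of the hybrid strain B6CASTF1/J, the offspring of C57BL/6J and CAST/EiJ, with the left cerebral cortex taken at 10 days of age. According to the labels these are biological replicates 1 and 2, although a single donor identifier is given for both. Both animals form 1 group without treatment, so there is no contrast between conditions and no p-value. A difference between the animals rests on 1 library each.

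As background, IGF1 and IGF2 are secreted peptides that resemble insulin and promote growth and survival of neural cells. Both signal through the tyrosine kinase IGF1R, and IGF2 also binds the short A form of the insulin receptor, while IGF2R removes IGF2 from the extracellular space and carries lysosomal enzymes. Binding proteins hold most extracellular IGF, lengthening its life or limiting its access to receptors. Igf2 and Igf2r are imprinted genes, and the alleles were not separated in these tables.

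Levels are TPM, which correct reads for transcript length and scale each library to the same total. Separate quantifications were deposited: the first was made from alignments to the transcriptome and the second from the reads with an index. Values are from the first unless said otherwise. Replicate 1 held 31254528 expected counts and replicate 2 held 30218308. Expected counts are reads after reads that match several features have been shared out. Detection means a level of at least 1 TPM in each library. Of the marker lists, 6 of 6 glutamatergic neuron genes were detected, and so were 6 of 6 striatal genes and all genes of the other neural, vascular, microglial and erythroid lists, so detection alone did not separate cortex from neighbouring tissue. The glutamatergic genes summed to 1962 and 1995 TPM in replicates 1 and 2. Lists of other sources differed between the animals: the summed level of 8 choroid plexus genes was 10.2 TPM in replicate 1 and 316 TPM in replicate 2, that of 6 striatal genes was 149 and 104 TPM, and that of 5 erythroid genes was 1213 and 836 TPM.

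A pair of alternative exons decides which form of IGF1 and of the insulin receptor a transcript can encode, and both are shown because the isoform results turn on them. In Igf1 the alternative exon of 52 bases (mm10, chromosome 10, 87915298 to 87915349, plus strand) shifts the reading frame of the E peptide and gives the Eb form. In Insr exon 11 has 36 bases (mm10, chromosome 8, 3181702 to 3181737, minus strand), which keeps the reading frame, and separates the B form, which has it, from the A form. The GENCODE M21 transcript sequences below run 5′ to 3′, with the alternative exon in capitals between 20 bases of each neighbouring exon.
Igf1-203: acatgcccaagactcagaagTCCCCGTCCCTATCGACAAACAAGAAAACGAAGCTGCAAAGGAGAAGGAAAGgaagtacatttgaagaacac
Igf1-202: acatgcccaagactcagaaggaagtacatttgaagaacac
Insr-203: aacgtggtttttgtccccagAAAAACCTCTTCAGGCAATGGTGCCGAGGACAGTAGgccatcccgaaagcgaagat
Insr-201: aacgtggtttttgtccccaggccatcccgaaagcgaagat

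All 10 genes were detected, where 59.6% of 22015 nuclear protein-coding genes were. They spanned a wide range of levels. Igf2 stood highest, the binding proteins Igfbp2, Igfbp5 and Igfbp4 followed, then came the 3 receptors, and Igfbp3, Igf1 and Igfbp6 were lowest. This order is of gene levels, which include short and noncoding models. The main coding transcript Igfbp4-201 had 14.97 and 17.1 TPM in replicates 1 and 2, close to the receptor transcript Igf1r-201 with 15.9 and 16.2. The noncoding Igfbp4-203 had 14.65 and 14.35 TPM. Summed over both ligands, the level was 109 TPM in replicate 1 and 139.5 in replicate 2, of which nearly all was Igf2. The 3 receptors summed to 54.8 and 57.6 TPM. The 5 binding proteins summed to 144 and 162 TPM, which was 46.7% and 45.2% of the level of all 10 genes.

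**Figure D1:**
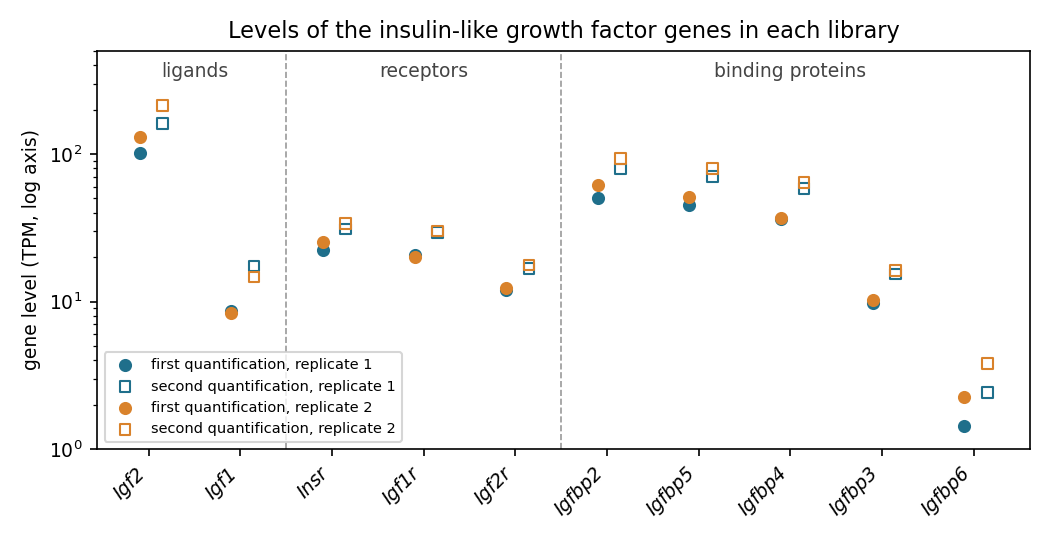
Level of each gene in TPM (log axis) in replicate 1 and replicate 2, by role, with filled circles for the first quantification and open squares for the second. Igf2 is the highest gene and Igfbp6 the lowest in every library, and every level is higher in the second quantification.

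Igf2 (ENSMUSG00000048583.16, chromosome 7, 142650766 to 142666816, minus strand) encodes the fetal growth factor of the pair. Its level was 100.7 TPM in replicate 1 and 131 TPM in replicate 2, or 116 ± 21.5 TPM (SD, n = 2). Only 3.58% of protein-coding genes had a higher mean level. Igf1 (ENSMUSG00000020053.18, chromosome 10, 87858265 to 87937042, plus strand), the main postnatal ligand, had 8.63 and 8.39 TPM, or 8.51 ± 0.17 (SD, n = 2). The level of Igf2 was 11.7 times that of Igf1 in replicate 1 and 15.6 times in replicate 2, so this ordering of the ligands was far wider than the spread of the libraries. In the second quantification the ratio was 9.26 and 14.4. The size of the ratio includes short Igf2 models. Igf2-207, of 376 bases, had 26.1 and 33.05 TPM in replicates 1 and 2 of the first quantification. Between the transcripts with most counts of each gene the gap was smaller. Igf2-201 had 26.3 and 27.3 TPM there, and Igf1-202 had 6.26 and 5.57.

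The receptors were closer together. Insr (ENSMUSG00000005534.10, chromosome 8, 3122061 to 3279617, minus strand), the insulin receptor, had 22.2 and 25.2 TPM in replicates 1 and 2. Igf1r (ENSMUSG00000005533.10, chromosome 7, 67952827 to 68233668, plus strand), which transmits the signal of both ligands, had 20.6 and 19.99 TPM. Igf2r (ENSMUSG00000023830.14, chromosome 17, 12682406 to 12769664, minus strand), the clearance receptor, had 11.96 and 12.45 TPM. The library ranges of these 3 genes did not overlap. The level of Insr was 1.17 ± 0.13 times that of Igf1r, and that of Igf1r was 1.66 ± 0.082 times that of Igf2r (SD, n = 2). These gene levels include short and retained-intron models. The main coding transcripts of Insr and Igf1r stood in the opposite order. Insr-201 had 13.5 and 13.05 TPM in replicates 1 and 2, and Igf1r-201 had 15.9 and 16.2. In the second quantification they had 19.7 and 19.4 against 22.5 and 22.8. Airn, an RNA transcribed antisense to part of Igf2r, had 78 and 70 expected counts against 2095 and 2106 for Igf2r. Because the strand setting was not given in the sources used here, reads in the overlap may be shared between them.

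Among the binding proteins, Igfbp2 (ENSMUSG00000039323.18, chromosome 1, 72824503 to 72852474, plus strand), which has a high affinity for IGF2, was highest at 50.7 and 61.7 TPM in replicates 1 and 2. Igfbp5 (ENSMUSG00000026185.8, chromosome 1, 72857932 to 72874884, minus strand), its neighbour in the genome, had 45.25 and 51.4 TPM. The ranges of Igfbp2 and Igfbp5 overlapped, the only neighbours in the order of the 10 genes for which this held in the first quantification. Within each library Igfbp2 was still the higher, by a ratio of 1.16 ± 0.056 (SD, n = 2). Igfbp4 (ENSMUSG00000017493.12, chromosome 11, 99041244 to 99054392, plus strand), which inhibits IGF action until the protease PAPPA cleaves it, had 36.4 and 36.7 TPM.

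Igfbp3 (ENSMUSG00000020427.11, chromosome 11, 7206086 to 7213923, minus strand), the main carrier of IGF in blood, had 9.76 and 10.3 TPM. Igfbp6 (ENSMUSG00000023046.6, chromosome 15, 102144362 to 102149511, plus strand), which prefers IGF2, had 1.44 and 2.26 TPM from 30 and 45 counts. It was the least abundant of the 10 genes, and 56.4% of protein-coding genes stood above it. In the second quantification Igf1 moved above Igfbp3, and the ranges of Igf2r, Igf1 and Igfbp3 overlapped, with Igf1 at 17.4 and 14.7 TPM, Igfbp3 at 15.4 and 16.2, and Igf2r at 16.7 and 17.6. The order of Igf2r, Igf1 and Igfbp3 therefore depended on the quantification, while the 6 genes above them kept their order of mean gene levels. Both quantifications include the same short and noncoding models, so this does not check the order of the coding transcripts.

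The next comparison was between the animals. A gene was called past the fold when its TPM, with 0.1 added, differed by 0.32 or more on the log2 scale, and when its mean expected count was 100 or more. This held for 6.99% of 11982 protein-coding genes, 5.11% higher in replicate 2 and 1.88% lower. Of the 10 genes 9 had enough counts, and 1 of these 9, Igf2, was past the fold. Its log2 ratio of replicate 2 to replicate 1 was 0.38 in TPM. Igf2 was also the 1 gene of the set past the same fold in the second quantification, where 9.29% of all genes were, and in CPM, where 3.42% were. In CPM (counts scaled to the library total) Igf2 was 1.29 times as high in replicate 2, with a 95% exact binomial interval of 1.24 to 1.35. Such intervals cover counting error only, because each animal gave 1 library, so variation between animals or libraries is not in them. Amplified copies of a molecule also cannot be told from separate molecules, so even the counting error may be understated. Among all genes with enough counts, 4.62% had a larger ratio in either direction.

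Igfbp2 and Igfbp5 were also higher in replicate 2. The log2 TPM ratio of Igfbp2 was 0.28, just under the threshold of 0.32, with a CPM ratio of 1.22 (95% interval 1.13 to 1.32). For Igfbp5 the log2 ratio was 0.18 and the CPM ratio 1.14 (1.10 to 1.18). Igfbp6 had the largest ratio of the 10 genes, 1.55 in CPM, but on 30 and 45 counts its interval of 0.956 to 2.55 includes equal levels. Igf2r and Igfbp3 differed little, with log2 TPM ratios of 0.06 and 0.07, and their CPM intervals included 1. Igf1r had a log2 ratio of -0.04 in TPM and a CPM ratio of 1.003, so its direction changed with the measure.

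For 3 genes the TPM and CPM ratios parted. Insr was higher in replicate 2 in TPM, with a log2 ratio of 0.18, but its counts were 2899 and 2787 and its CPM ratio was 0.994 (0.944 to 1.05). More of its estimated reads lay on the short transcript Insr-202 in replicate 2, as given further on. Igfbp4 had a log2 TPM ratio of 0.01 and a CPM ratio of 1.10 (1.03 to 1.19). Igf1 had a log2 TPM ratio of -0.04 and a CPM ratio of 0.907 (0.826 to 0.997). Over the 9 genes with enough counts the median log2 TPM ratio was 0.07, against 0.04 over all protein-coding genes with enough counts, and 7 of the 9 were higher in replicate 2, against 62.4% of all genes.

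**Figure D2:**
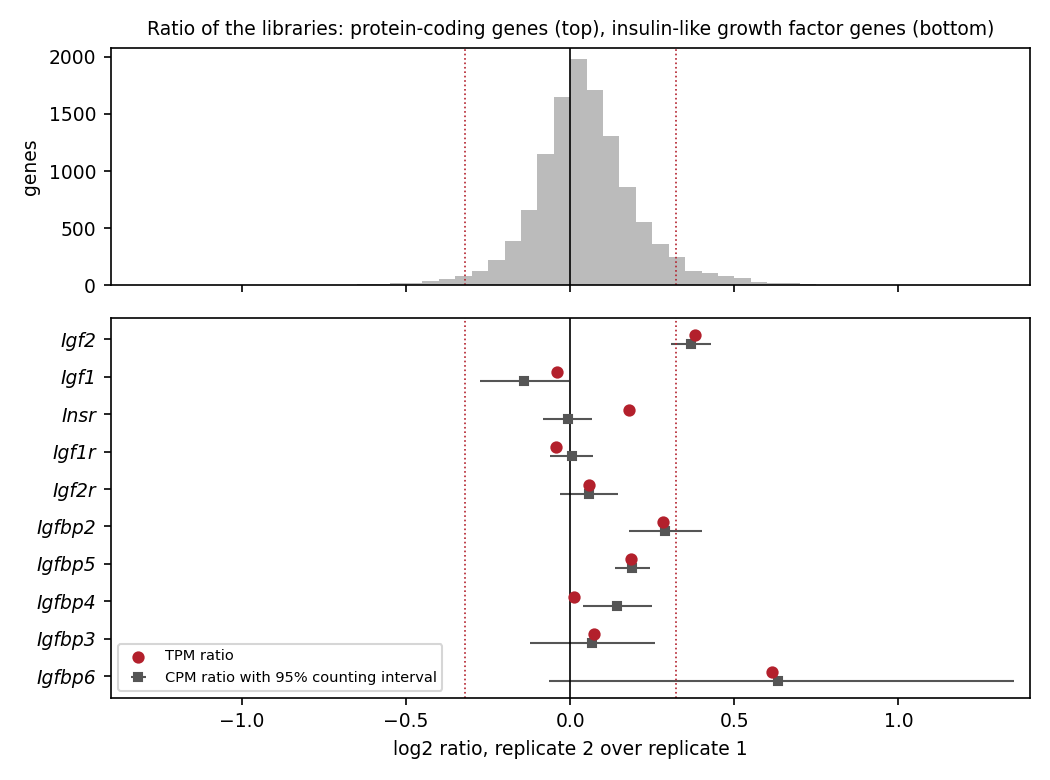
Distribution of the log2 ratio of replicate 2 to replicate 1 over 11982 protein-coding genes (top, in TPM, values beyond the ends pooled in the last bins) and the ratio for each of the 10 genes (bottom) in TPM (circles) and in CPM with its 95% counting interval (squares and bars). Dotted lines mark the fold threshold of 0.32, and only Igf2 and Igfbp6, which has few counts, lie beyond them.

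Igf2 and Igfbp2 are also made by cells of the meninges, vessels and choroid plexus, so the marker lists of these cells are given beside their ratios. The list of leptomeningeal and perivascular fibroblasts had 8 of 8 genes detected and summed to 104.6 TPM in replicate 1 and 128 TPM in replicate 2. In it the collagen gene Col1a1 had 29.8 and 38.2 TPM, the transporter gene Slc6a13 6.76 and 10.8, and the retinoic acid enzyme gene Aldh1a2 2.84 and 4.36, while Lum was lower in replicate 2 with 1.49 and 1.15. Of the choroid plexus list 1 of 8 genes was detected in both libraries, and all 8 were higher in replicate 2. The choroid plexus gene Ttr alone had 7.35 and 304 TPM, and no gene of either list was at 0. Mural cell genes summed to 72.3 and 66.7 TPM, and endothelial genes to 97.3 and 99.95. The part of these cells in the ratios of Igf2 and Igfbp2 was not tested, and in bulk tissue more cells of a type and more RNA per cell cannot be told apart.

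Transcripts of Igf2 differ mainly in where they start. The annotation gives 9, of which 7 are labelled as protein coding. By TPM, the start of Igf2-201 and Igf2-202, the nearest to the coding exons, held 41.9 ± 0.66% of the gene in the first quantification and 26.6 ± 2.9% in the second (SD, n = 2). That of Igf2-205 held 7.36 ± 0.85% and 6.52 ± 0.64%, and that of Igf2-203 held 6.43 ± 0.86% and 1.63 ± 2.3%. Models that start inside the gene body held 16.7 ± 0.40% and 51.3 ± 3.0%, and short models weigh heavily in TPM, so count shares are given too, a measure chosen after seeing the data. Of the expected counts of Igf2, 69.2% in replicate 1 and 64.8% in replicate 2 went to Igf2-201 and Igf2-202 (Igf2-201 starts at chromosome 7, 142657496). These had 50.8% and 42.7% of the counts in the second quantification. The transcript Igf2-205, which starts at 142659489 and has a long first exon of its own, took 16.2% and 19.1%. The most distant start, that of Igf2-203 at 142666816, took 2.01% and 1.67%. A start between these, shared in part by Igf2-204 and Igf2-206, took 1.64% and 3.26% in the first quantification but 25.5% and 30.4% in the second. The share of Igf2-205 was 16.2% and 18.7% in the second, close to the first, whereas the split between the nearest start and that of Igf2-204 differed between the quantifications.

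The 60 bases before the nearest and the most distant of these starts are shown, since the former held the largest share of Igf2 counts in both quantifications and the latter a small one, and for both the RefSeq start coincides with that of the GENCODE transcript. Sequences are from RefSeq on GRCm38.p6, minus strand, 5′ to 3′. The motif TATAA was in neither window on either strand. It occurred on the sense strand in the same window of 5.58% of 32817 RefSeq promoters, and on the opposite strand in 3.35%. The absence says only that these letters are not there.
Igf2 start at 142657496, window chr7:142657497-142657556: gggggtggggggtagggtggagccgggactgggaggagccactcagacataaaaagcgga
Igf2 start at 142666816, window chr7:142666817-142666876: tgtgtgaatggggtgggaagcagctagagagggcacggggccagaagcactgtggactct

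The higher Igf2 count of replicate 2 was not spread evenly over the transcripts. Igf2-201 was estimated at 1946 counts in replicate 1 and 1942 in the other, with a CPM ratio of 1.03. Igf2-202 had 812 and 1283 counts, a ratio of 1.63, and Igf2-205 had 646 and 951, a ratio of 1.52. Igf2-204 had the largest ratio, 2.63, on 57.8 and 147 counts, against 1107 and 1634 counts in the second quantification. The second quantification gave ratios of 1.02 for Igf2-201, 1.28 for Igf2-202 and 1.53 for Igf2-204, and its counts of Igf2-205 were 705 and 1018. Thus Igf2-205 was higher in replicate 2 by about the same factor in both quantifications, and Igf2-201 was nearly equal in both. Gm49394, a gene that shares the last exons of Igf2, held 9.24 and 9.32 counts, and adding its level to that of Igf2 left the log2 ratio at 0.38.

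By mean TPM the top transcript of Igf2 was a fragment. Igf2-207, an incomplete model of 376 bases, held 25.6 ± 0.53% of the Igf2 TPM, against 23.5 ± 3.7% for Igf2-201 (SD, n = 2), on 3.68 ± 0.072% of its counts. In the second quantification Igf2-207 had no count, and Igf2-209, a model of 462 bases, held 40.4 ± 4.2% of the TPM with 164 and 173 counts. Both are short, so few reads give a high TPM. By mean share of counts Igf2-201 was the top transcript in both quantifications. In replicate 2 of the second quantification, however, Igf2-204 had 1634 counts against 1545 for Igf2-201.

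Of the 8 annotated Igf1 transcripts, all labelled as coding, Igf1-202 took most of the expression. It ends in a last exon of 6368 bases and held 893 of 953 counts in replicate 1 and 764 of 836 in replicate 2. Its share of the TPM was 69.5 ± 4.4% in the first quantification and 55.4 ± 2.7% in the second (SD, n = 2). Igf1 has a pair of alternative leader exons, spliced from position 87859412 or from 87861385. Transcripts with the first leader held 87.0% and 86.2% of the TPM in replicates 1 and 2. In the second quantification they held 53.5% and 57.4%, and 27.2 and 29.3 counts were given to Igf1-205, a model of 798 bases with the second leader that had none in the first. By counts the first leader held 97.7 ± 0.32% and 94.9 ± 0.50% in the first and second quantification. Its share was thus the larger by either measure. However, Igf1-202, the only transcript with the last exon of 6368 bases, has the first leader. Reads in that exon therefore enter the first leader share whichever leader the RNA had. Reads over the leader exons themselves were not counted here, so these shares do not settle which leader was used more.

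By these estimates the 52-base exon of the Eb form was in the minority. Transcripts with it at its length of 52 bases, Igf1-203, Igf1-206 and Igf1-208, held 22.9% of the TPM of Igf1 in replicate 1 and 28.2% in replicate 2. The second quantification gave 23.2% and 10.9%, so the libraries were in the opposite order. Of the 23.2%, Igf1-208 alone held 19.9%, against 0 in replicate 2, and this model ends with the last base of the exon and holds no splice beyond it. These shares rest on 47.7 and 58.9 counts in the first quantification and on 13.3 and 7.80 in the second. They were also carried by different transcripts: Igf1-203 had 40.2 and 51.2 counts in the first and under 1 in the second. By counts the Eb exon share was 6.02 ± 1.4% in the first quantification and 1.03 ± 0.29% in the second (SD, n = 2). Transcripts that skip the exon held 73.0 ± 3.9% and 80.8 ± 7.5% of the TPM. Igf1-202 is among them, so reads in its long last exon enter their share whether or not the RNA held the 52-base exon.

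For Insr the only transcript of 21 exons, Insr-201, lacks exon 11. As a spliced exon it is annotated only in Insr-203, a model of 672 bases. The retained-intron model Insr-204, a single exon of 4019 bases with 141 and 126 counts, also covers the sequence of exon 11, so reads from it may have been assigned there, and it was left out of the share because it has no splice. Of the TPM of the 2 transcripts spliced across the site, Insr-203 held 8.62% in replicate 1 and 14.4% in replicate 2. In the second quantification its share was 13.3% and 16.8%. The transcript without exon 11 thus held 88.5 ± 4.1% in the first quantification and 85.0 ± 2.5% in the second (SD, n = 2), and was higher in every library. Insr-203 had only 14.9 and 24.9 counts against 2559 and 2379 for Insr-201, and by counts its share was 0.807 ± 0.32%. The difference in length between the models, and not only the exon, enters each of these shares, and reads over the exon itself were not counted here.

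**Figure D3:**
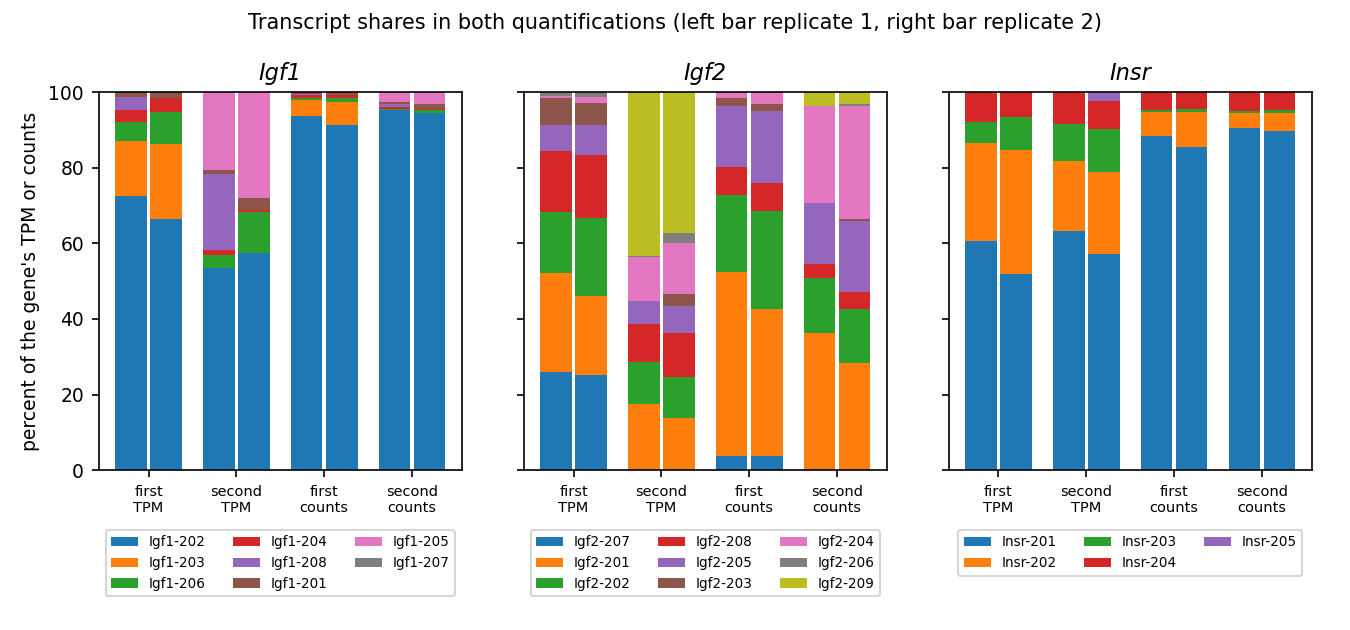
Percent of the TPM and of the counts of Igf1, Igf2 and Insr held by each annotated transcript, in both quantifications, with replicate 1 as the left and replicate 2 as the right bar of each pair. Igf1-202 and Insr-201 lead in all bars of their gene, while the short models Igf2-207 and Igf2-209 hold 25.6% and 40.4% of the mean TPM of Igf2 in the first and second quantification without leading its counts.

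Other Insr RNA was estimated on transcripts with retained introns. Insr-202, a short model that ends in an intron, held 184.5 and 257 counts and 25.7% and 32.9% of the TPM of the gene. Igf1r had a single coding transcript, Igf1r-201, with 79.1 ± 2.6% of the TPM and 95.3 ± 0.51% of the counts (SD, n = 2), and 5 retained-intron models with the rest. Igf2r-201 held 97.2 ± 0.48% of the TPM of Igf2r. Igfbp2-201, Igfbp3-201 and Igfbp5-201 held 94.5%, 94.7% and 98.3% of the TPM of their genes, and Igfbp6 has 1 transcript.

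Igfbp4 was the exception among the binding proteins. Igfbp4-201 held 81.7 ± 1.6% of the counts of the gene but 43.9 ± 3.9% of its TPM, and a noncoding model held much of the rest: Igfbp4-203 with 39.7 ± 0.83% in the first quantification and Igfbp4-202 with 44.9 ± 1.1% in the second (SD, n = 2). Both quantifications put the same transcript first by TPM in 8 of the 10 genes, the exceptions being Igf2 and Igfbp4. By mean share of counts they did so in all 10.

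The remaining genes of the pathway were taken from a list of 41, of which 32 were detected, where 59.6% of nuclear protein-coding genes were. The list held 31 genes with enough counts, of which 2 were higher in replicate 2 past the fold and 1 was lower, where 5.11% and 1.88% of all protein-coding genes were. These 3 are Irs4, H19 and Pappa2, described with their roles. H19 is a noncoding RNA, so it is not among the protein-coding genes behind these percentages. The median log2 ratio of the list was 0.08, against 0.04 over all protein-coding genes. Every one of the 17 genes from phosphoinositide kinase to mTOR and Foxo was detected, and none was past the fold. Among the highest of these were the kinase Gsk3b with 118 and 116 TPM and the kinase regulatory subunit Pik3r2 with 80.8 and 87.6. The lowest were the transcription factor Foxo1 with 7.66 and 7.62 TPM, the catalytic subunit Pik3cb with 8.78 and 9.15, and the mTOR inhibitor Tsc1 with 19.8 and 20.7.

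Of 8 adaptors next to the receptors 7 were detected. Sh2b1, Irs2 and Grb10 were highest, at 32.9 ± 1.4, 23.4 ± 1.9 and 23.3 ± 0.93 TPM (SD, n = 2). Irs2 is a main docking protein of the insulin and IGF1 receptors, and Grb10 is an imprinted inhibitor of their signal. Shc1 and Gab1 were lower, with 6.37 ± 0.94 and 5.64 ± 0.11 TPM. Irs4 was the lowest, at 0.61 TPM in replicate 1 and 1.02 in replicate 2, and it was higher in replicate 2 past the fold, with a log2 ratio of 0.66.

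Among 12 extracellular regulators and related genes 6 were detected. The insulin-degrading enzyme gene Ide had 41.7 and 44.3 TPM, Igfbp7, a distant relative of the binding proteins, 25.1 and 26.8, and the growth hormone receptor gene Ghr 5.32 and 5.58. Ins1 had no count in either library, which allows up to 0.096 CPM in replicate 1 and 0.099 in replicate 2, and Ins2 had 1 count in each. The liver genes Igfals and Igfbp1 stood at 0.055 ± 0.035 and 0.11 ± 0.049 TPM (SD, n = 2). Pappa2, a protease that cleaves IGF binding proteins, was lower in replicate 2 past the fold, with 2.28 and 1.62 TPM and a log2 ratio of -0.47. Its log2 ratio was -0.24 in the second quantification, which is not past the fold.

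H19, the imprinted RNA next to Igf2, was far below Igf2 at 2.10 TPM in replicate 1 and 2.97 in replicate 2. Like Igf2, it was higher in replicate 2 past the fold, with a log2 ratio of 0.48 on 87 and 120 counts. The fetal genes for proteins that bind Igf2 messenger RNA were low: Igf2bp2 had 1.20 and 1.08 TPM, Igf2bp3 0.56 and 0.59, and Igf2bp1 0.35 and 0.12. In the second quantification Igf2bp1 had 1.80 and 1.76 TPM, above Igf2bp3 with 0.76 and 0.77, so their order depended on the quantification.

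**Figure D4:**
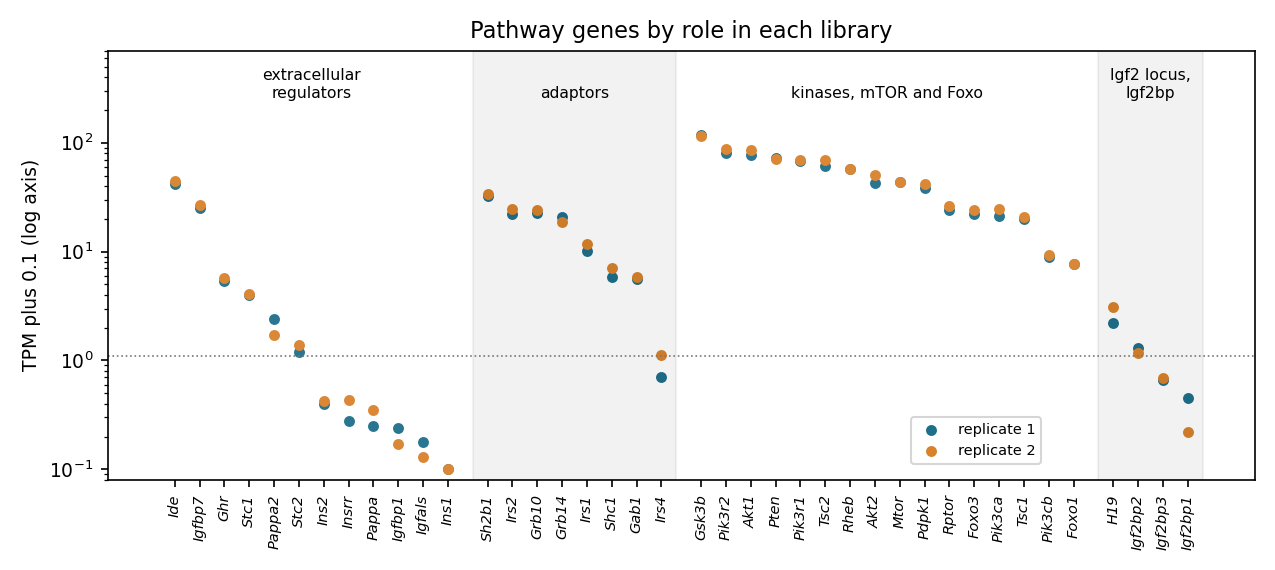
Level of 40 of the 41 pathway genes (TPM plus 0.1, log axis) in replicate 1 and replicate 2, grouped by role and ordered by mean level, with the detection level as a dotted line. The 16 kinase, mTOR and Foxo genes drawn lie above 7 TPM, while 6 of 12 extracellular regulators lie below the line.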

How the data were processed

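Total RNA-seq libraries, each from 300 ng of RNA with ERCC spike-ins, were quantified on mm10 with GENCODE M21, per the deposited file descriptions. Programs, versions and strand setting were not given in the sources used here. Deposited tables of the first quantification hold expected counts and TPM per gene and per transcript, and the percent of each gene held by a transcript. From the authors' second quantification, deposited per transcript as estimated counts and TPM, gene values were made here by summing. Only 1 parent strain is represented by the reference.

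Shares of transcripts were computed from deposited TPM and counts, and exon classes from the annotation. Ratios between libraries used log2 of TPM plus 0.1, and CPM with 95% Clopper-Pearson intervals (scipy 1.17.1). TMM factors for an alternative came from edgeR 4.0.16 on rounded expected counts, for genes with a mean of 10 or more. Over 18556 genes the chi-square statistic per gene between the libraries was 5.05, above the sampling noise, so they are not 1 library deposited again. The labels call the 2 samples biological replicates, although a single donor identifier is given for both. With 1 library each, the biological and technical parts of their spread cannot be told apart.

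Genes, lists and thresholds were chosen with earlier results of these data known, and the Igf2 start classes and count shares after seeing the files. All 10 genes were to be named; from the pathway list the 3 highest and 3 lowest of each role and any past the fold, of which 1 gene is not reported here. With 2 libraries of 1 group no gene could be named for a like pattern. RefSeq promoter sequences matched 9 of the 10 genes.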

Additional observations from a re-analysis of the deposited data

How the results depend on the processing

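No paired analysis was possible because the libraries form 1 group. The count of genes past the fold stayed at 1 under CPM, TMM and spike-in scaling, the second quantification, posterior means and a pseudocount of 1. It was 2 with no minimum count, which adds Igfbp6, and 0 at 1.5-fold. Neighbours in the order of levels with overlapping ranges numbered 1, and 3 in the second quantification. The sums of ligands, receptors and binding proteins were 203, 79.4 and 241 TPM in the second quantification, for which the cause was not tested. They were 256, 116 and 315 TPM when scaled over nuclear protein-coding genes alone, which is a smaller denominator. The first leader share of Igf1 was 55.5% in the second quantification and 97.7% by expected counts. The Eb exon share was 17.1% and 6.02%. The exon 11 share of Insr was 0.807% by expected counts, a measure added after seeing the data, which leaves transcript length uncorrected. All 10 genes stayed detected except at 5 TPM, where 9 did. Of 61 alternatives for log2 ratios of the 10 genes 52 lay no further from the value given than its counting interval reaches. Of 51 alternatives for the levels of the 10 genes 21 moved beyond 1 SD. The log2 ratio of Insr ranged from -0.03 (TMM) to 0.18, and that of Igf2 from 0.34 to 0.39. Of 12 alternatives for the Igf2 start shares 10 moved beyond 1 SD. The shares of exon 11, the Eb exon and the second Igf1 leader rest on under 60 counts and are limited by depth.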

Other observations

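Some transcript estimates differed between the libraries more than their gene did. Igf1r-203, a retained-intron model of the IGF1 receptor gene, held 81.1 counts in replicate 1 but 35.9 in the other, so that its CPM ratio was 0.457, while Igf1r-201 had a ratio of 1.01. The second quantification gave Igf1r-203 a ratio of 0.403. Igfbp2-202, a shorter coding model, had 61.4 and 35.9 counts, a ratio of 0.604, and 0.809 in the second quantification, while Igfbp2-201 had 1.26 and 1.23. Other differences were not shared by the quantifications. Igfbp5-202 had 136 counts in replicate 1 and 0 in replicate 2 in the first quantification but 573 and 534 in the second. Igfbp4-205 had 29.6 counts in replicate 1 and 0 in replicate 2, and none in either library in the second quantification.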
